A study of Mus musculus with 267 samples.

Results

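The matrix metalloproteinase genes Mmp13, Mmp12 and Mmp8, which lie in one cluster on mouse chromosome 9, were followed through chromatin immunoprecipitation sequencing (ChIP-seq) of bone marrow-derived macrophages (BMDMs). The 3 genes, of 55450 annotated, are all on the plus strand: Mmp13 (ENSMUSG00000050578.10) at chr9:7272514-7283331, Mmp12 (ENSMUSG00000049723.14) at chr9:7344381-7369499 and Mmp8 (ENSMUSG00000005800.3) at chr9:7558456-7568485 in mm10. Mmp12 also has a downstream start at position 7347374. Measured regions and transcription factor peaks centred within 50 kb of a gene start were taken and given to the nearest of the 3 starts. This left 132 of 423610 rows of the deposited tag tables, 60 for Mmp12, 44 for Mmp8 and 28 for Mmp13, and 887 of 1958714 factor peaks, 362, 351 and 174 respectively.

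The BMDMs came from female mice, 8 to 12 weeks old, of 5 inbred strains, named here C57 for C57BL/6J, BALB for BALB/cJ, NOD for NOD/ShiLtJ, PWK for PWK/PhJ and SPRET for SPRET/EiJ, and from Egr2 fl/fl (Egr2flfl) and LyzM-Cre Egr2 fl/fl (LyzMCreEgr2flfl) mice. All were grown from marrow in M-CSF, then left untreated (basal) or given interleukin-4 (IL-4) for 24 h, and C57 cells also for 1 and 6 h. Egr2flfl mice carry floxed alleles of the gene for the transcription factor EGR2 and no Cre, and the Cre of the other genotype is driven by LyzM, which is active in myeloid cells in general and not in BMDMs alone. The 267 samples formed 138 groups, of which 155 libraries entered the tag tables used here, with 2 libraries a group for the histone marks and factors, 2 to 4 for RNA polymerase II (Pol II) in the strains except 1 for C57 at 1 h, and 1 a group for Pol II in the Egr2 genotypes.

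Depth ranged from 4691644 to 29050468 tags a library. Values are normalized tags, the authors' tag counts in a window scaled to 10000000 tags a library. The window was 1000 bp for histone marks and Pol II at open chromatin, so levels of one target can be set side by side between regions, and 300 bp for factors in the genotype comparison. Of 8 macrophage marker promoters, 7 or 8 reached 16 H3K27ac tags in every strain, with a summed level of 2230 to 3998 basal and 1480 to 2069 at 24 h. No T cell marker had a region in any strain. Of the fibroblast markers only Col1a1 had one, in each strain but BALB, and it stayed below 16 tags. Of 3 B cell markers, 1 reached that level. Since Mmp8 is also the neutrophil collagenase, 7 neutrophil markers were looked up: 1 to 3 had a region, 1 or 2 reached 16 tags, and their sum was 53.8 (C57) to 347 (SPRET) basal and 48.5 (C57) to 341 (SPRET) at 24 h. S100a8 had a region in every strain (37.4 tags basal in C57 to 239 in NOD). Camp had one in each strain but BALB (16.3 in C57 to 230 in SPRET), and Elane in SPRET alone. Ly6g, S100a9, Mpo and Ltf had no region in any strain, which is not a measured zero. In a mixed culture, more cells of a type and more signal in each cell cannot be told apart.

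Matrix metalloproteinases are zinc-dependent proteases that cut components of the extracellular matrix. Mmp12, macrophage elastase, degrades elastin and is a gene of macrophages, Mmp8 and Mmp13 are collagenases that cut fibrillar collagen, with Mmp8 best known from neutrophils and Mmp13 from bone and cartilage. IL-4 signals through STAT6 and turns macrophages towards a state linked with tissue repair. PU.1 and C/EBPb are lineage factors of macrophages, PPARg is a nuclear receptor that IL-4 induces in them, and EGR2 is a zinc finger factor. H3K27ac marks active enhancers and promoters, H3K4me2 marks both kinds of element and H3K4me3 chiefly promoters.

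The sequences of the 4 starts show which core motifs lie beside each gene. They are RefSeq sequence of the C57BL/6J reference (GRCm38.p6, mm10), plus strand, with matches to the motifs below in capitals. The Mmp8 run is chr9:7558179-7558428, the upstream start of Mmp12 is chr9:7344147-7344396, its downstream start is chr9:7347124-7347373, and Mmp13 is chr9:7272264-7272513.
Mmp8 promoter: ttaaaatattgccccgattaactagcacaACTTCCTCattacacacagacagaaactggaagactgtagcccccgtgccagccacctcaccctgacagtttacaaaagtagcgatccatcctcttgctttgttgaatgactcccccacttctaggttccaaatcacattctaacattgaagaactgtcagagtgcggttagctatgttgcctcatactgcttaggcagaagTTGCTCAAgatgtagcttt
Mmp12 upstream start: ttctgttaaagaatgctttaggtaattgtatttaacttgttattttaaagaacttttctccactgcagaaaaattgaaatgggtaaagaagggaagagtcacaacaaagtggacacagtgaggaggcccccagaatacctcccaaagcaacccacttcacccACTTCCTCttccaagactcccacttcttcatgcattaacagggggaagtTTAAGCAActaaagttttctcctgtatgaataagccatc
Mmp12 downstream start: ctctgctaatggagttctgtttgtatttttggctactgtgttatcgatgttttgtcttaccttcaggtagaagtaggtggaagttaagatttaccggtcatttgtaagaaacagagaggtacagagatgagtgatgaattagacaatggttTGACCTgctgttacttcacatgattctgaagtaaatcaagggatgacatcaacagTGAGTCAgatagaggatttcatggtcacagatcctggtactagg
Mmp13 promoter: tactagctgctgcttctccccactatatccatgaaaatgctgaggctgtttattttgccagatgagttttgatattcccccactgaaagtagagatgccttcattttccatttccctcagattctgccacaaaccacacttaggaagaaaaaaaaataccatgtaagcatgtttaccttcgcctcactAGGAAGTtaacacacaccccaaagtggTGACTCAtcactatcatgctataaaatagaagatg

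A pair of intergenic elements upstream of Mmp12 carry much of what follows, and 300 bases around the EGR2 site in each are shown. The first lies at chr9:7330367-7330666, 13.9 kb before the upstream start, and the second at chr9:7337179-7337478, 7.1 kb before it.
Mmp12 -13.9 kb element: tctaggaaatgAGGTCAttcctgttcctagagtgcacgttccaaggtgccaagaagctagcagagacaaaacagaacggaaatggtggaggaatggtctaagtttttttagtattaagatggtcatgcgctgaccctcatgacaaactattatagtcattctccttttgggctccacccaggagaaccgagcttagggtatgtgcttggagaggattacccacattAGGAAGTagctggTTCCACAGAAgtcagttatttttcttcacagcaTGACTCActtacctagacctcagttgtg
Mmp12 -7.1 kb element: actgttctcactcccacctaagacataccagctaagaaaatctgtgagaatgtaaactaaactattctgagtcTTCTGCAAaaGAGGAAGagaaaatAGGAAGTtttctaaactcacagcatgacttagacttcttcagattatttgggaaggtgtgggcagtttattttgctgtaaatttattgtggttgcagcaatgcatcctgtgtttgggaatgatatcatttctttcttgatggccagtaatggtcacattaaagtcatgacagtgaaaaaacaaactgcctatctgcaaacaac

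Both strands were searched for the EGR strings GCGTGGG or also GCGGGGG, the STAT6 string TTCNNNNGAA, the PU.1 strings AGGAAGT or also GAGGAAG, the C/EBP string TTGCNNAA, the AP-1 string TGANTCA and the PPAR hexamer AGGTCA. Mmp8 and the upstream start of Mmp12 each held both PU.1 strings, overlapping, and TTGCNNAA. The Mmp12 downstream start and Mmp13 held TGANTCA, with AGGTCA in the former and AGGAAGT in the latter. The -13.9 kb element held the STAT6 string, AGGAAGT, the AP-1 string and the PPAR hexamer, and the -7.1 kb element held both PU.1 strings and TTGCNNAA. None of the 6 runs held either EGR string. Among 32851 promoter runs and 30662 EGR2-bound windows of 300 bp, TTCNNNNGAA was in 5.85% and 9.21%, AGGAAGT in 7.69% and 20.4%, GAGGAAG in 10.6% and 25.7%, TTGCNNAA in 9.56% and 16.9%, TGANTCA in 6.75% and 18.5%, AGGTCA in 14% and 16.9%, GCGTGGG in 4.30% and 10.3% and GCGGGGG in 9.63% and 14.7%.

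The first question was how each strain's chromatin at the cluster responded to 24 h of IL-4. H3K27ac at the -13.9 kb element of Mmp12 was higher after IL-4 in both libraries of all 5 strains, by 3.22- to 4.79-fold between group means (each plus 1) in C57, BALB, NOD and SPRET. In fits that did not pair libraries by replicate number, the element passed the test in SPRET alone. The largest distal H3K27ac region, 7.0 to 7.5 kb upstream of Mmp12, showed no such shift. H3K27ac 14.1 to 14.4 kb downstream of the Mmp8 start was lower after IL-4 in both libraries of the 4 strains that had the region. No strain pair moved in opposite directions with every library, and differences between strains were not tested, since each strain's table was built on its own regions.

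At the -13.9 kb element of Mmp12, H3K27ac in C57 was 13.57 and 29.95 normalized tags in the basal libraries and 101.01 and 114.85 at 24 h. In BALB it was 20.58 and 34.55 basal against 164.91 and 73.84, and in NOD 49.87 and 26.99 against 130.92 and 121.01. The groups did not overlap in these 3 strains, and the basal libraries of C57 and BALB were the low end. In PWK the element held 85.84 and 133.11 tags basal and 310.45 and 187.06 at 24 h, and in SPRET 44.45 and 74.41 against 278.59 and 183.08. PWK had the highest basal level. By limma on log2(normalized tags + 1), Mmp12 at -13.9 kb rose in SPRET by a log2 fold change of 1.95 (SE 0.38, adjusted p = 0.015), with C57 at 2.36 (SE 0.51, adjusted p = 0.117), BALB at 2.01 (SE 0.64, adjusted p = 0.0704), NOD at 1.75 (SE 0.53, adjusted p = 0.253) and PWK at 1.17 (SE 0.49, adjusted p = 0.389). The SPRET call was lost without any 1 of its 4 libraries, basal replicates 1 and 2 and IL-4 replicates 1 and 2, with adjusted p from 0.0705 to 0.541. The median row of the whole table shifted by -0.28 in C57, -0.30 in BALB, -0.20 in NOD, -0.18 in PWK and -0.09 in SPRET, and relative to it the Mmp12 element stood at 2.64, 2.31, 1.95, 1.34 and 2.04.

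**Figure D1:**
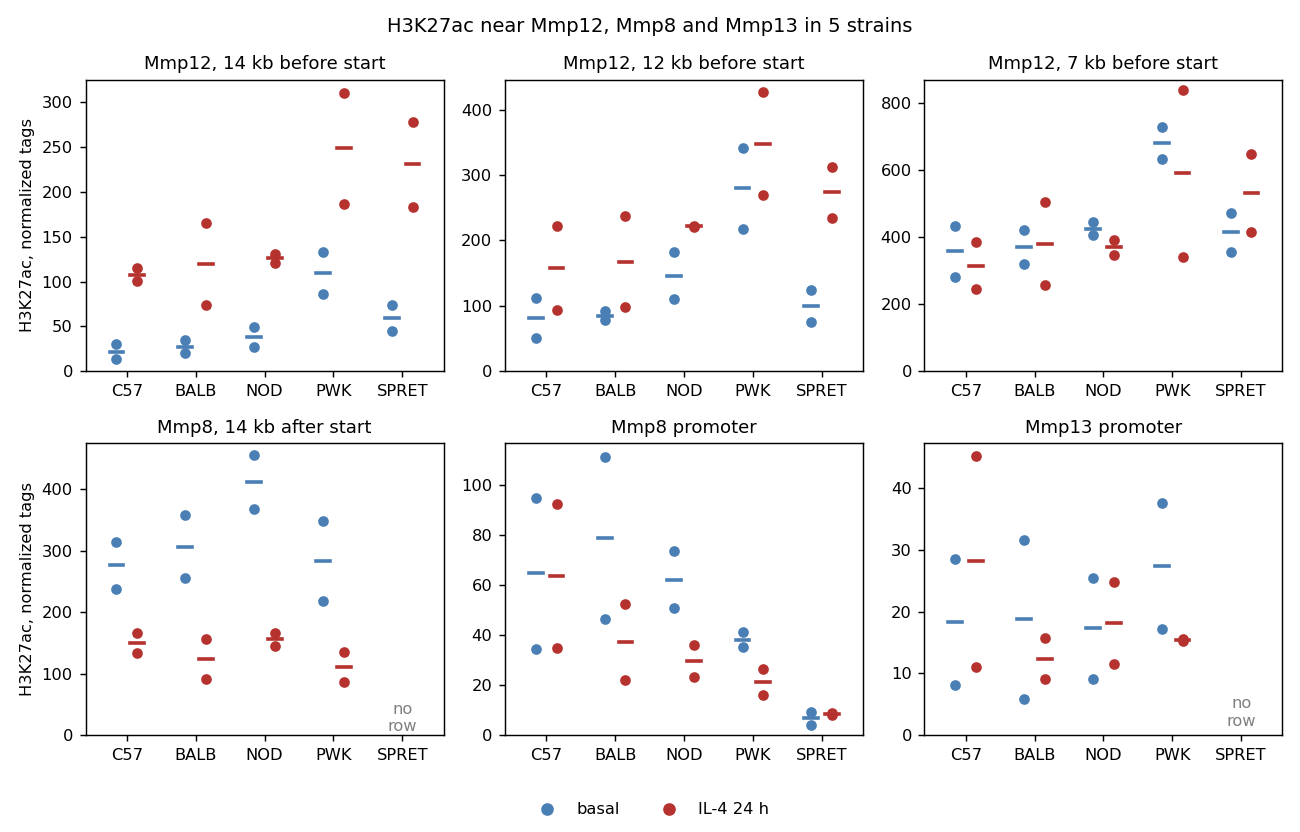
H3K27ac at regions of Mmp12, Mmp8 and Mmp13 in the 5 strains, in normalized tags per 1000 bp (vertical axis, linear), basal and after 24 h of IL-4; points are libraries and bars are group means of 2 libraries. At the Mmp12 element near -14 kb all IL-4 points lie above the basal points in every strain, and at the Mmp8 region near 14 kb all lie below.

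The neighbouring element of Mmp12 at -12.4 kb, also intergenic, held 50.2 and 112.66 H3K27ac tags basal and 94.22 and 222.49 at 24 h in C57. In SPRET it held 76.08 and 124.46 against 312.09 and 234.77. The 2 conditions did not overlap in SPRET, NOD (182.03 and 110.33 against 222.77 and 220.63) and BALB (77.89 and 91.75 against 237.2 and 97.66). The SPRET log2 fold change was 1.47 (SE 0.36), with an adjusted p of 0.0654. The region at -7.5 to -7.0 kb was the strongest distal H3K27ac region of Mmp12: C57 had 282.23 and 432.82 tags basal and 244.46 and 384.6 at 24 h, and NOD 444.69 and 404.82 against 347.9 and 391.74. PWK had the highest levels there, 727.88 and 631.89 basal and 839.1 and 341.67 at 24 h. The libraries of the 2 conditions overlapped in C57, BALB (320.4 and 421.8 against 503.76 and 255.82), PWK and SPRET (356.49 and 472.14 against 647.98 and 413.54).

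At the Mmp8 region 14.1 to 14.4 kb downstream, which lies in an intron of the neighbouring Mmp27, H3K27ac in C57 was 238.13 and 315.17 tags basal and 134.12 and 166.05 at 24 h. It was 255.73 and 358.05 against 156.63 and 91.47 in BALB, 368.22 and 456.42 against 145.38 and 166.6 in NOD, and 348.49 and 218.46 against 134.69 and 86.85 in PWK. The basal libraries were the higher ones in each of these strains, with no overlap, and SPRET had no row there. The log2 fold change for Mmp8 was -0.87 (SE 0.34, adjusted p = 0.208) in C57, -1.33 (SE 0.79, adjusted p = 0.534) in BALB, -1.39 (SE 0.40, adjusted p = 0.24) in NOD and -1.34 (SE 0.49, adjusted p = 0.308) in PWK. Relative to the median row these were -0.59, -1.03, -1.19 and -1.16, and none passed limma's threshold. The share of a library's tags that lay in regions was lower at 24 h in C57 (65.4% and 59.6% against 43.2% and 38.2%). It was also lower in NOD (63.0% and 60.5% against 54.0% and 42.0%). It overlapped in BALB (58.6% and 51.2% against 57.1% and 28.7%) and PWK (53.5% and 55.2% against 55.0% and 38.1%). The part of this share in the Mmp8 values was not tested. The macrophage marker promoters also had a lower summed H3K27ac at 24 h in every strain, as did the neutrophil marker sum in BALB (172 to 90.8), NOD (270 to 140) and PWK (298 to 194); their part in the Mmp8 values was not tested.

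The Mmp8 promoter showed no shared shift in the 2 C57 groups, with 34.6 and 94.84 H3K27ac tags basal and 34.8 and 92.54 at 24 h. In NOD the promoter of Mmp8 held 50.7 and 73.82 basal and 23.15 and 36.02 at 24 h, and in PWK 41.2 and 35.24 against 26.26 and 16.22. SPRET had the lowest Mmp8 promoter signal, from 3.95 to 9.4 tags over its 4 libraries. The Mmp13 promoter was low throughout: 8.14 and 28.52 against 11.03 and 45.29 in C57, 5.88 and 31.58 against 9.04 and 15.72 in BALB, 9.14 and 25.4 against 11.57 and 24.77 in NOD, and 17.17 and 37.58 against 15.49 and 15.27 in PWK. Basal and IL-4 libraries of the Mmp13 promoter overlapped in C57, BALB and NOD. The strongest distal region of Mmp13, 49.7 to 49.8 kb upstream, had means of 58.4 basal and 53.8 at 24 h in C57. It was lower without overlap in NOD (77.3 and 52.7), overlapped in C57, BALB and PWK, and had no row in SPRET. At the upstream start of Mmp12, means were 106 and 171 in BALB and 88.7 and 160 in NOD, with overlap in both.

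Counted over all rows, limma on H3K27ac called 1 of 13 rows in SPRET, where 1.19% of all rows were called. It called 0 of the 19 C57, 17 BALB, 18 NOD and 13 PWK rows of the 3 genes, where 0%, 2.26%, 0.0566% and 0.535% of all rows were called. Of these rows, 5, 2, 4 and 3 had p below 0.05 before adjustment, and of the count tests edgeR called 1 row, in BALB, while DESeq2 called 1 row each for C57, BALB and NOD but 0 for PWK. The rule of a 2.5-fold difference between group means (each plus 1) with one mean of 16 tags or more marked 2 of 19 rows in C57 (11% of all rows), 1 of 17 in BALB (7.97%), 3 of 18 in NOD (8.38%), 1 of 13 in PWK (6.12%) and 3 of 13 in SPRET (3.58%). The -13.9 kb element of Mmp12 was among them in each strain but PWK, the Mmp8 region at 14.1 to 14.4 kb in NOD and PWK, and the SPRET count also held Mmp12 at -12.4 and 14.9 kb. The counts in C57, BALB and PWK were near these shares. With the replicate number as a block, limma called more H3K27ac rows of the genes in every strain. Those counts are listed at the end without the share of all rows, so they are not a result about the 3 genes.

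Mean Pol II at Mmp12 regions was higher after IL-4 in all 5 strains. The libraries overlapped at every C57 region of Mmp12. They also overlapped at 5 regions of the other strains (NOD -7.1 kb, PWK -7.5 and -3.5 kb, BALB -1.0 kb and SPRET 14.9 kb). The share of all rows without overlap was not counted, so these overlaps describe the regions and are no result about the gene. Single regions passed the test in BALB, PWK and SPRET. In PWK the gene body region 7.9 kb into Mmp12 held 1769.85, 1016.95 and 664.46 normalized tags basal and 3813.05, 2031.06 and 2058.47 at 24 h. In SPRET the same region of Mmp12 held 123.85, 399.72 and 236.18 basal and 1215.22, 996.64 and 578.06 at 24 h. All IL-4 libraries were above all basal ones in both strains, and the SPRET change was a log2 fold change of 1.96 (SE 0.39, adjusted p = 0.0427 by limma), against 1.24 (SE 0.36, adjusted p = 0.12) in PWK. At the downstream start of Mmp12, BALB held 84.31, 145.9 and 25.16 tags basal and 313.32 and 372.94 at 24 h, and NOD 92.78 and 79.42 against 270.24 and 209.85. These did not overlap either, with log2 fold changes of 2.31 (adjusted p = 0.0575) and 1.46 (adjusted p = 0.269).

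C57 differed in its spread. At the downstream start of Mmp12 the 4 basal C57 libraries held 256.45, 52.16, 94.86 and 38.48 Pol II tags and the 3 IL-4 libraries 270.78, 94.2 and 192.39. Basal replicate 1 was as high as the IL-4 libraries and the groups overlapped. Within each of the 3 same-numbered pairs the IL-4 library was the higher one. At the 8.0 kb region of Mmp12 the same libraries held 305.12, 94.69, 153.28 and 44.55 basal and 538.22, 164.29 and 297.57 at 24 h, a log2 fold change of 1.32 (SE 0.53, adjusted p = 0.437). There too the IL-4 library was higher in each same-numbered pair.

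In BALB, limma called Pol II at the upstream start of Mmp12, which held 3.19, 32.03 and 6.56 tags basal and 61.81 and 96.01 at 24 h (log2 fold change 2.94, SE 0.65, adjusted p = 0.00263), and at -13.9 kb, which held 1.92, 5.93 and 8.75 against 29.84 and 33.33 (2.48, SE 0.66, adjusted p = 0.0307). The median row of BALB Pol II shifted by 0.32. The upstream start call was lost without basal replicate 1, basal replicate 3 or IL-4 replicate 2 (adjusted p up to 0.901), and the -13.9 kb call without any 1 of the 5 libraries (0.113 to 0.788). Both BALB calls at Mmp12 were also lost under median-ratio scaling (adjusted p = 0.250 and 0.347), with edgeR (0.188 and 0.155), with DESeq2 (0.173 and 0.308) and with the replicate as a block (0.180 and 0.149). The -12.4 kb element of Mmp12 rose in PWK, from 67.01, 33.57 and 25.76 to 110.73, 105.59 and 115.45 Pol II tags, and in SPRET, from 11.61, 17.51 and 22.08 to 85.35, 71.39 and 59.1. The log2 fold changes were 1.49 (SE 0.33, adjusted p = 0.0351) and 2.04 (SE 0.30, adjusted p = 0.01). The 1.2 kb region of Mmp12 in SPRET held 23.22, 46.44 and 50.32 tags basal and 106.48, 103.91 and 97.88 at 24 h (1.41, SE 0.29, adjusted p = 0.048). The PWK call held only without basal replicate 1 (0.00699 to 0.220 over the 6 libraries left out). In SPRET the -12.4 kb call was lost without IL-4 replicate 1 or 2 (up to 0.0887), the 1.2 kb call without any 1 library (0.0741 to 0.178), and the 7.9 kb call held only without basal replicate 2 (0.0227 to 0.191).

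**Figure D2:**
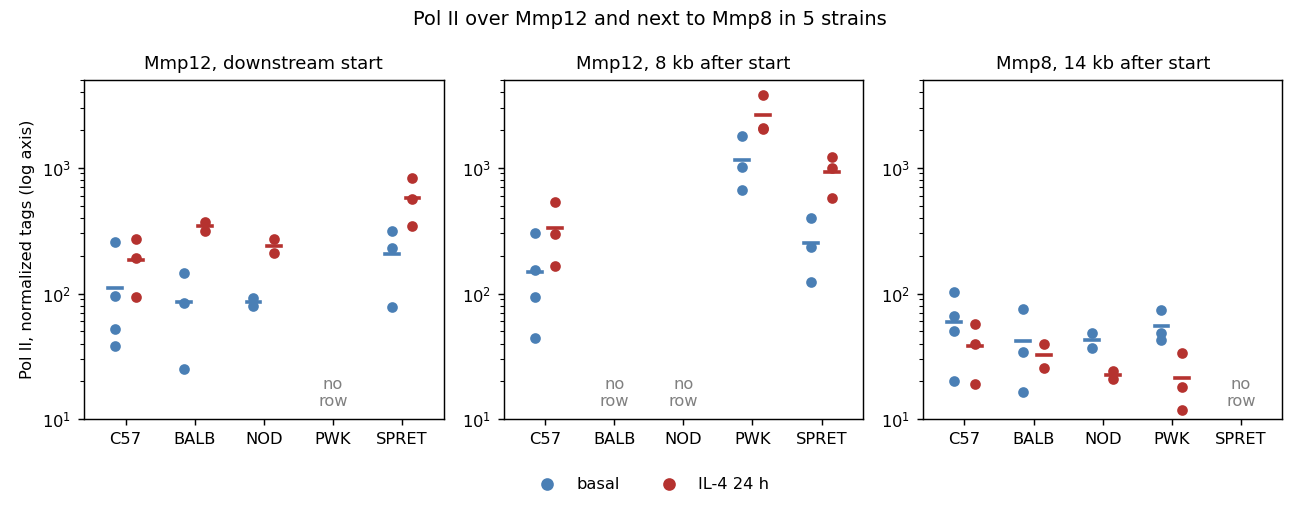
Pol II at regions of Mmp12 and Mmp8 in the 5 strains, in normalized tags per 1000 bp on a log axis, basal and after 24 h of IL-4; points are libraries and bars are group means of 2 to 4 libraries. At the downstream start and the 8 kb region of Mmp12 the IL-4 points lie above the basal ones in each strain with a row but C57, whose basal replicate 1 sits among the IL-4 libraries.

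Replicate numbers paired the Pol II samples of C57, PWK and SPRET, and with the replicate as a block limma called more. In PWK 6 of 13 rows were called where the block called 9.78% of all rows, 4 higher at Mmp12 (-13.9, -12.4, -7.0 and 7.9 kb) and 2 lower at Mmp8. The lower ones were at 14.1 kb, where Mmp8 held 74.07, 48.26 and 42.43 Pol II tags basal and 33.79, 11.85 and 17.96 at 24 h (log2 fold change -1.41, adjusted p = 2.95e-05 with the block and 0.0917 without), and at 9.1 kb (-0.92, adjusted p = 0.0314 with the block). In SPRET 8 of 13 rows were called with the block, all higher and all at Mmp12, against 8.39% of all rows, and in C57 0 of 19 against 0.809%. Without the block the counts of called rows were 2 of 17 in BALB (0.707% of all rows), 1 of 13 in PWK (1.72%), 3 of 13 in SPRET (1.05%), 0 of 19 in C57 (0.319%) and 0 of 18 in NOD (0%); in C57 and NOD 3 and 5 rows had p below 0.05 before adjustment, and DESeq2 called 1 row in NOD, edgeR none there and neither any in C57. The 2.5-fold rule, here with 8 tags or more in one mean, marked 1 of 19 rows in C57 (3.23% of all rows), 7 of 17 in BALB (6.84%), 4 of 18 in NOD (3.6%), 2 of 13 in PWK (3.59%) and 7 of 13 in SPRET (2.34%). The marked rows in BALB and SPRET were all at Mmp12 and all higher, NOD had 3 higher at Mmp12 and 1 lower at Mmp8 (9.1 kb, 40.23 and 29.44 against 17.53 and 5.4 tags), and the C57 row was the Mmp13 promoter.

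H3K4me3 at the downstream start of Mmp12 was higher at 24 h in both libraries of the 4 strains with a row there. C57 held 13.1 and 17.55 tags basal and 44 and 56.18 at 24 h, BALB 18.98 and 28.28 against 59.53 and 51.2, and NOD 17.11 and 8.42 against 53.69 and 58.67. SPRET held 31.42 and 104.79 against 162.36 and 143.45. The groups did not overlap in any of the 4, and the log2 fold changes were 1.65 (adjusted p = 0.185), 1.22 (0.773), 2.13 (0.138) and 1.39 (0.852). H3K4me3 at Mmp12, Mmp8 and Mmp13 gave 0 limma calls in every strain, where 0% (C57), 0% (BALB), 0.0203% (NOD), 0.0349% (PWK) and 0% (SPRET) of all rows were called; before adjustment 4, 2, 3, 5 and 0 rows of the genes had p below 0.05, and in NOD edgeR called 2 rows and DESeq2 1, with 0 by both elsewhere.

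H3K4me2 at the -13.9 kb element of Mmp12 overlapped between conditions in C57 (27.77 and 38.71 basal, 51.87 and 32.21 at 24 h), BALB, PWK and SPRET, and stood apart in NOD (30.9 and 30.47 against 48.49 and 48.27). No row of the 3 genes was called by limma, where 0.236% (C57), 0.0111% (BALB), 0.189% (NOD), 0.314% (PWK) and 0% (SPRET) of all rows were. Before adjustment 3, 0, 1, 0 and 2 rows had p below 0.05, and 0 were called by edgeR or DESeq2 in any strain.

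The C57 time course asked when the response set in. At the -13.8 and 8.0 kb regions of Mmp12 mean H3K27ac was highest at 6 h, but the 6 and 24 h libraries overlapped. Pol II at 8.0 kb was higher in both 6 h libraries than in those of any other time. The -13.8 kb element held 13.57 and 29.95 H3K27ac tags basal, 109 and 28.92 at 1 h, 174.04 and 109.54 at 6 h and 101.01 and 114.85 at 24 h. Both 6 h and both 24 h libraries were above both basal ones, while 1 h replicate 2 was within the basal range. The log2 fold change against basal was 1.43 at 1 h (SE 0.64, adjusted p = 0.137), 2.71 at 6 h (SE 0.64, adjusted p = 0.0205) and 2.36 at 24 h (SE 0.64, adjusted p = 0.072). The 8.0 kb region within Mmp12 held 0 and 3.57 tags basal, 25.51 and 7.92 at 1 h, 28.49 and 11.56 at 6 h and 7.64 and 11.81 at 24 h. It rose from this low level at 1 h (log2 fold change 2.85, SE 0.76, adjusted p = 0.0297) and 6 h (3.17, SE 0.76, adjusted p = 0.022), and stood at 2.30 (adjusted p = 0.134) at 24 h. The 1 h call was lost without basal replicate 1, 1 h replicate 1 or either 6 h library (adjusted p up to 0.192), and both 6 h calls without basal replicate 1 or either 6 h library (up to 0.269 at -13.8 kb and 0.301 at 8.0 kb). The median row shifted by -0.63 at 1 h, -0.14 at 6 h and -0.22 at 24 h, against which the -13.8 kb element of Mmp12 stood at 2.06, 2.86 and 2.58.

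**Figure D3:**
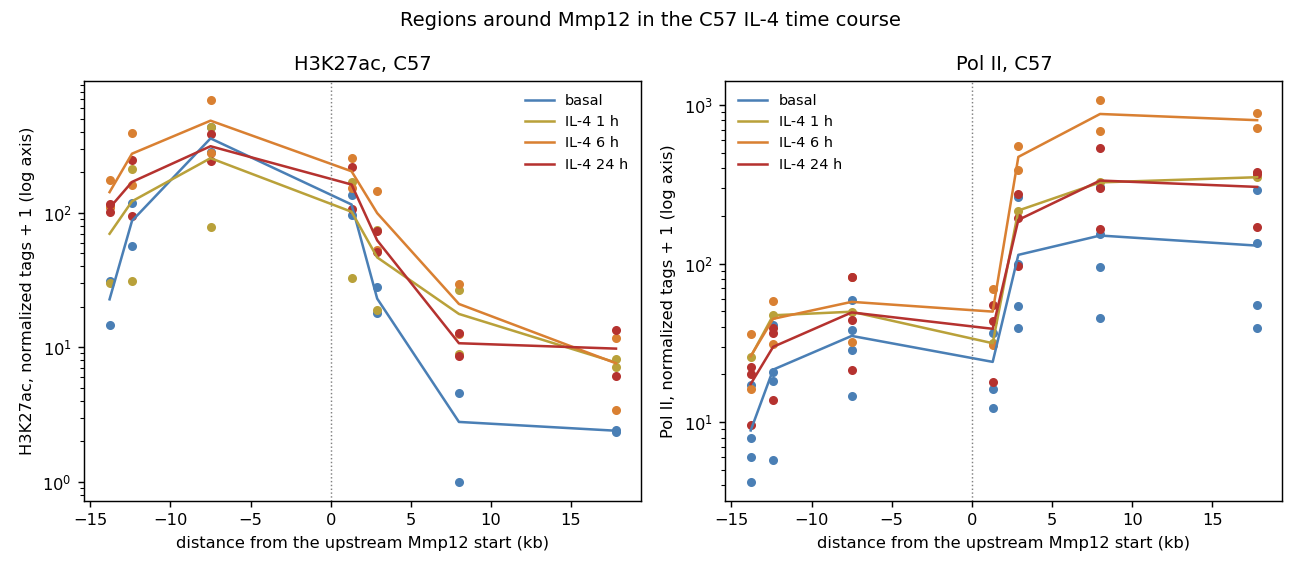
H3K27ac and Pol II at Mmp12 regions in C57 BMDMs at 0 (basal), 1, 6 and 24 h of IL-4, in normalized tags per 1000 bp; points are libraries, lines join group means, and Pol II at 1 h is 1 library. Pol II at the 8.0 kb region was highest at 6 h, at 1074.37 and 682.03 tags. H3K27ac libraries at 6 and 24 h overlapped at the -13.8 and 8.0 kb regions.

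Pol II at the 8.0 kb region of Mmp12 was 324.45 tags in the 1 library at 1 h and 1074.37 and 682.03 at 6 h. Both 6 h libraries were above all 4 basal and all 3 IL-4 24 h libraries (log2 fold change at 6 h 2.84, SE 0.60, adjusted p = 0.0397). At 17.8 kb of Mmp12, Pol II was 288.89, 53.76, 134.52 and 38.48 basal, 887.65 and 717.13 at 6 h and 377.49, 168.38 and 365.55 at 24 h, with a log2 fold change of 3.06 (SE 0.61, adjusted p = 0.0302) at 6 h. The 8.0 kb call was lost with a filter on low values (adjusted p = 0.0515), and both calls were lost without basal replicate 2, 3 or 4 or either 6 h library (adjusted p up to 0.472 and 0.374). The difference between 6 and 24 h was not tested.

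For Mmp8, the 14.1 kb region held 238.13 and 315.17 H3K27ac tags basal, 148.42 and 33.39 at 1 h, 269.53 and 212.99 at 6 h and 134.12 and 166.05 at 24 h. Levels were below basal at 1 and 24 h and overlapped with basal at 6 h (log2 fold changes -1.94, adjusted p = 0.0589, and -0.87, adjusted p = 0.48, at 1 and 24 h). The region of Mmp8 at -2.0 kb held 25.78 and 59.18 basal, 13.14 and 6.88 at 1 h, 16.94 and 15.21 at 6 h and 11.88 and 36.75 at 24 h. Across the 24 rows of the 3 genes limma called 1 at 1 h, 2 at 6 h and 0 at 24 h for H3K27ac, where 9.72%, 5.13% and 1.45% of all rows were called, and 2 at 6 h and 0 at 24 h for Pol II (0.566% and 0.677%). At 24 h 5 H3K27ac rows and 4 Pol II rows had p below 0.05 before adjustment, and 1 H3K27ac row and 0 Pol II rows were called by edgeR, as by DESeq2. The 2.5-fold rule on H3K27ac marked 6 rows at 1 h, 6 at 6 h and 2 at 24 h, against 22.9%, 14.2% and 10.9% of all rows. At each of the Mmp12 and Mmp8 regions given here 1 h replicate 2 was below 1 h replicate 1. Of the tags of replicate 2, 20.5% lay in regions, against 44.0% in replicate 1 and 69.7% and 63.8% basal. At 1 h 4 of the 6 marked rows were lower ones, as were 16048 of the 17848 marked among all rows.

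Factor peaks from the authors' reproducible lists were counted next. Around Mmp12, STAT6 peaks went from 3 basal to 16 at 24 h of IL-4 in C57, from 2 to 6 in BALB, from 3 to 10 in NOD, from 12 to 15 in PWK and from 9 to 15 in SPRET. PWK and SPRET already held more STAT6 peaks at Mmp12 when basal than the other 3 strains. With the 2 lists of a strain cut to the same number of peaks, Mmp12 held 14, 6, 10, 13 and 15 STAT6 peaks at 24 h. In C57 the Mmp12 count was 4 at 1 h and 8 at 6 h. STAT6 peaks around Mmp8 were 2 to 5 basal and 4 to 7 at 24 h, and around Mmp13 0 to 3 and 1 to 7. The lists differ in size, from 11486 to 39537 peaks for STAT6 in the strains at these 2 conditions, and each was called from replicates of 1 group together, so counts have no replicate error.

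At the -13.9 kb element of Mmp12, STAT6 and PPARg peaks were in 2 strains basal (PWK and SPRET for STAT6) and in all 5 at 24 h. PU.1 had a peak there in all 5 strains in both conditions, C/EBPb in 1 and then 3, and EGR2 in 0 and then 2 (C57 and SPRET). At the -7.1 kb element of Mmp12, STAT6, PU.1 and C/EBPb had a peak in all 5 strains in both conditions and EGR2 in 4 and then 5. The upstream start of Mmp12 had a STAT6 peak in 1 and then 4 strains and an EGR2 peak in 4 and then 5. The Mmp8 promoter, whose run above holds the PU.1 and C/EBP strings, had PU.1 and C/EBPb peaks in all 5 strains in both conditions, STAT6 in 4 and then 5, PPARg in 0 and then 3, and EGR2 in 3 and then 2. The Mmp8 region near 14 kb had C/EBPb in all 5 strains and STAT6 in 4 in both conditions. The Mmp13 promoter had PPARg peaks in 4 and then 5 strains and no EGR2 peak in any of the 10 lists.

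EGR2 tags over time in C57 were measured at 14 sites, 8 of them at Mmp12. At -13.9 kb of Mmp12, EGR2 was 14.05 and 18.8 tags basal, 7.23 and 52.08 at 1 h, 5.24 and 75.89 at 6 h and 43.99 and 71.04 at 24 h. At the upstream start of Mmp12 it was 73.52 and 60.43 basal, 37.03 and 72.33 at 1 h, 87.29 and 114.09 at 6 h and 159.78 and 100.8 at 24 h. Both 24 h libraries were above basal at these sites, and the replicates at 1 and 6 h lay far apart at the first. The -7.1 kb element of Mmp12 was 103.96 and 76.55 basal and 166.96 and 73.92 at 24 h, which overlap. The Mmp8 promoter was 59.47 and 64.46 basal, 16.26 and 84.87 at 1 h, 41.9 and 102.88 at 6 h and 72.26 and 79.68 at 24 h, and the Mmp13 site at -2.2 kb was 22.01 and 13.43 basal and 43.54 and 30.72 at 24 h.

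**Figure D4:**
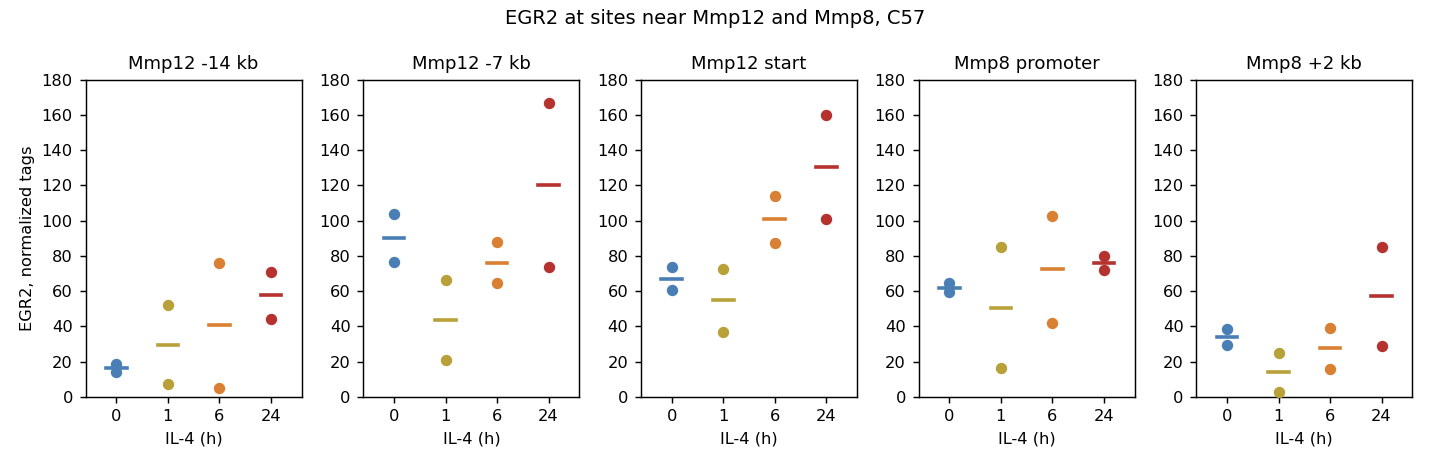
EGR2 ChIP-seq signal at sites of Mmp12 and Mmp8 in C57 BMDMs at 0 (basal), 1, 6 and 24 h of IL-4, in normalized tags. Points are libraries and bars are means of 2. Replicate 1 is below replicate 2 at 1 and 6 h, and no site passed the test.

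Limma called 0 of the 14 EGR2 sites at 1, 6 and 24 h (0%, 0% and 0% of all rows), with 0, 0 and 2 sites below a p of 0.05 before adjustment and 0 called by edgeR or DESeq2. At 24 h all 14 log2 fold changes were above 0, with a median of 0.98 against 0.66 over all rows. The adjusted p by limma at the Mmp12 site at -13.9 kb was 0.838. The C57 24 h list held 8, 5 and 1 EGR2 peaks around Mmp12, Mmp8 and Mmp13, as many as the sites measured. The basal list held 2, 1 and 0. Sites that are peaks at 24 h tend to show a rise from basal, so the shared direction is no test.

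The Egr2 genotypes asked what the regions look like with Egr2 deleted in myeloid cells. Their tables hold 4677 sites, each with at least 2.00 times as much mean EGR2 (plus 1) at 24 h as basal in the C57 time course, so that rise chose them; 7 are near the 3 genes, 5 at Mmp12 and 1 each at Mmp8 and Mmp13. At the 1 row inside Egr2 itself, 3.7 kb from its start, H3K27ac at 24 h was 152.77 and 197.82 tags in Egr2flfl and 161.04 and 143.36 in LyzMCreEgr2flfl. Whether that row lies in the deleted stretch is not given in the sources used here, so it does not check the deletion.

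Within Mmp12, the 8.0 kb site had less H3K27ac and H3K4me2 in LyzMCreEgr2flfl than in Egr2flfl cells at 24 h. H3K27ac there was 15.34 and 9.5 tags basal and 29.15 and 21.19 at 24 h in Egr2flfl, against 7.02 and 6.73 basal and 1.04 and 6.96 at 24 h in LyzMCreEgr2flfl. H3K4me2 was 11.72 and 19.49 basal and 11.81 and 24.82 at 24 h in Egr2flfl, against 5.64 and 8.76 and 0.72 and 3.85 in LyzMCreEgr2flfl. The genotypes did not overlap in either condition for either mark, all at low levels. At 24 h the log2 fold change was -2.68 (SE 0.57, adjusted p = 0.00344) for H3K27ac and -2.65 (SE 0.51, adjusted p = 6.73e-05) for H3K4me2. The median of all sites was -0.50 for H3K27ac and -0.16 for H3K4me2. The first call was lost without Egr2flfl 24 h replicate 1 (adjusted p = 0.0641), the second without Egr2flfl 24 h replicate 2 (0.0504), and DESeq2 called neither (0.0547 and 0.0541). The test that the genotype difference itself changed with IL-4 gave adjusted p = 0.312 for H3K27ac and 0.626 for H3K4me2 at this Mmp12 site.

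Pol II was used from a single library a group, with no replicate check, since the 4 further Pol II columns of this table match no sample label and were left out. At 8.0 kb of Mmp12 it was 243.68 tags basal and 660.14 at 24 h in Egr2flfl, against 35.1 and 94.49 in LyzMCreEgr2flfl. At 17.5 kb it was 282.07 and 800.51 against 34.45 and 79.85, and at 18.4 kb 186.1 and 722.24 against 21.45 and 75.86. The LyzMCreEgr2flfl library was the lower one at each of these Mmp12 sites in both conditions, and each genotype's 24 h library was above its basal one.

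**Figure D5:**
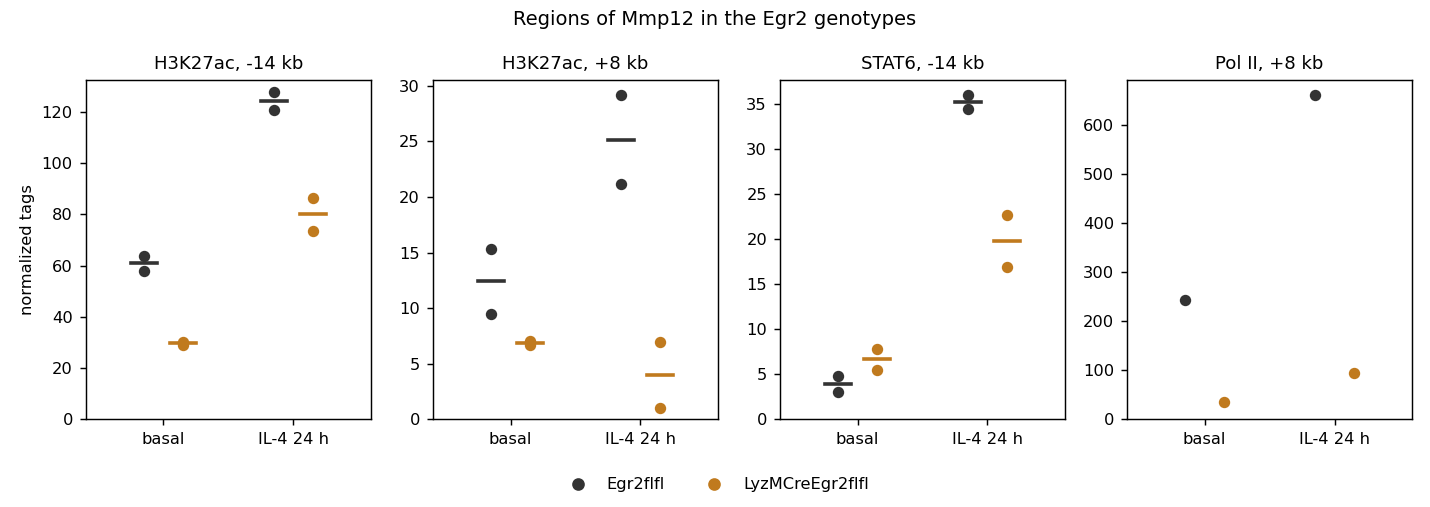
ChIP-seq signal at Mmp12 sites in Egr2flfl and LyzMCreEgr2flfl BMDMs, basal and after 24 h of IL-4, in normalized tags; points are libraries and bars are group means, with 1 library a group for Pol II. LyzMCreEgr2flfl lies below Egr2flfl for H3K27ac at the sites near -14 and 8 kb in both conditions.

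At the -13.9 kb element of Mmp12 the genotype difference in H3K27ac did not pass the test. It held 57.94 and 63.8 tags basal and 127.64 and 120.74 at 24 h in Egr2flfl, and 29.08 and 30.27 basal and 86.24 and 73.71 at 24 h in LyzMCreEgr2flfl. The LyzMCreEgr2flfl libraries were the lower pair in both conditions without overlap, and the 24 h pair was above the basal pair in both genotypes. The genotype log2 fold change was -1.01 basal (SE 0.23, adjusted p = 0.0762) and -0.63 at 24 h (SE 0.23, adjusted p = 0.0588). Relative to the median site these were -0.81 and -0.13, and the test of a changed difference gave adjusted p = 0.663.

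STAT6 at this Mmp12 element was 3.09 and 4.79 tags basal and 36.1 and 34.52 at 24 h in Egr2flfl, and 7.8 and 5.51 and then 22.68 and 16.9 in LyzMCreEgr2flfl. At 24 h the genotypes did not overlap, but the log2 fold change of -0.82 (SE 0.58, adjusted p = 0.469) was close to the -0.79 of the median site. PPARg was 47.11 and 39.39 at 24 h in Egr2flfl and 13.9 and 33.59 in LyzMCreEgr2flfl (-0.96, adjusted p = 0.757), and PU.1 41.13 and 43.26 against 42.32 and 48.48 (0.10, SE 0.25, adjusted p = 0.856). C/EBPb was 36.28 and 34.93 against 5.43 and 24.66 (-1.51, adjusted p = 0.244). PU.1 alone was no lower in LyzMCreEgr2flfl, where the median site was at -0.33 on the log2 scale.

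At the Mmp13 site, 2.2 kb upstream, H3K27ac was 13.63 and 16.29 basal and 15.08 and 22.48 at 24 h in Egr2flfl, and 6.02 and 10.65 and then 4.16 and 6.96 in LyzMCreEgr2flfl. The 24 h difference was -1.60 (SE 0.46, adjusted p = 0.0194) and was lost without either Egr2flfl 24 h library or LyzMCreEgr2flfl 24 h replicate 1 (adjusted p up to 0.170). The Mmp13 call was also lost under median-ratio scaling (adjusted p = 0.0965), with edgeR (0.0740) and with DESeq2 (0.247). C/EBPb at this Mmp13 site was 78.61 and 43.87 at 24 h in Egr2flfl and 11.53 and 13.94 in LyzMCreEgr2flfl (-2.13, SE 0.82, adjusted p = 0.0747). At the Mmp8 site at -2.0 kb, H3K27ac overlapped between genotypes, with 18.09 and 23.12 against 24.94 and 16.25 at 24 h. PPARg at this Mmp8 site was 20.48 and 18.91 tags at 24 h in Egr2flfl and 6.95 and 0 in LyzMCreEgr2flfl, without overlap (log2 fold change -2.87, SE 1.15, adjusted p = 0.341, against -1.28 at the median site). STAT6 at Mmp8 was 8.71 and 17.7 against 8.25 and 4.51 (-0.92, adjusted p = 0.478). C/EBPb, the strongest factor signal at the Mmp8 site, was 224.96 and 88.55 against 119.42 and 54.69 (-0.80, adjusted p = 0.434).

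At 24 h limma called 2 of the 7 sites for H3K27ac, 1 for H3K4me2 and 1 for C/EBPb, where 24.7%, 9.09% and 8.25% of all sites were called. The C/EBPb call, at 17.5 kb of Mmp12, rests on 4.23 and 4.06 tags in Egr2flfl against 0 and 0 (adjusted p = 0.0359), and was lost without any 1 of the 4 libraries at 24 h (up to 0.302), under median-ratio scaling (0.197) and with edgeR (0.451). For STAT6, PPARg and PU.1 it called 0 sites near the genes, against 0.0214%, 0% and 9.45% of all sites, with 2, 1 and 0 below a p of 0.05 before adjustment. Basal, it called 0 of 7 for H3K27ac (0.192% of all sites), H3K4me2 (0.0855%), STAT6 (0%), PPARg (0%), PU.1 (0%) and C/EBPb (0%), with 1, 1, 0, 0, 0 and 0 below a p of 0.05 before adjustment. In all these cases with 0 calls, edgeR and DESeq2 also called 0.

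Other genes of the family were read at their promoters. Of 25 listed metalloproteinase, inhibitor (Timp) and Reck genes, 9 or 10 had a promoter region in a strain's table, and limma called 0 for H3K27ac and for Pol II in every strain. The 2.5-fold rule marked Mmp11 as higher in SPRET H3K27ac (means of 17.97 and 59.3 tags), Mmp14, a membrane-bound activator of other metalloproteinases, as lower in C57 H3K27ac (78.9 and 30.2), and Mmp17 (3.24 and 20.8) and Reck (6.55 and 35.7) as higher in BALB Pol II. The log2 medians of the list ran from -0.23 to 0.19 for H3K27ac and from -0.13 to 0.78 for Pol II, against -0.30 to -0.09 and -0.10 to 0.32 over all rows.

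Over the 10 strain and condition means of H3K27ac, the promoters most like the lead distal region of Mmp12, at -7.5 kb, among 11028 genes were those of Bag2 (Pearson r = 0.970), C330018D20Rik (0.957) and Snx12 (0.953). For the Mmp8 promoter they were C1qc (0.962), Gm6034 (0.960) and H2-T22 (0.960). The points share libraries and depth across genes, and with 10 points such values are a description.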

How the data were processed

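BMDMs from 5 strains and 2 Egr2 genotypes were profiled by ChIP-seq for Pol II, 3 histone marks (H3K4me3, H3K4me2, H3K27ac) and 5 factors (STAT6, EGR2, PPARg, C/EBPb and PU.1). As described in the labels and the methods, the authors mapped reads by Bowtie2 to strain-specific genomes shifted back to mm10 coordinates, and counted tags with HOMER. The deposited tag tables hold a signal: tags in a window per 10000000 tags of the library total, for 1000 bp around open chromatin or EGR2 sites, 300 bp for factors at those sites, or the given peak bounds for EGR2 over time. The deposited peak lists hold a score and a tag count per peak, from replicates of a group tested jointly for reproducibility (IDR). STAT6, PPARg and EGR2 chromatin was fixed with DSG before formaldehyde. A strain's open chromatin regions set which rows its table has, so an absent row is not a measured zero, and scaling to the library total leaves differences in enrichment between libraries in place.

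Rows and peaks were assigned to Mmp8, Mmp12 or Mmp13 by distance to the GENCODE vM21 starts, the upstream start being used for Mmp12. Each table and target was fitted whole with limma 3.58.1 (R 4.3.3, with a mean-variance trend) on log2(normalized tags + 1), so folds of low rows are understated, and p-values were adjusted over all rows by Benjamini and Hochberg with a threshold of 0.05. For the strains, only the basal and 24 h libraries of 1 strain entered a fit, and the time courses and genotypes shared one spread over their groups. Pol II in the genotypes had 1 library a group and no test. The values divided by the worth of 1 read gave whole reads within 0.1 for 7268918 of 7268918 values (100%). On these reads edgeR 4.0.16 and DESeq2 1.42.0 were run as alternatives. Other alternatives were a pseudocount of 5, a filter on low values or none, a 2-fold rule, median-ratio scaling, a replicate block, leaving out each library, a window of 25 kb and equal-sized peak lists.

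Named regions were, for each gene, the promoter row and the distal row with the most C57 H3K27ac. The EGR2 sites were also named, and part of them are given with values. Each row called by limma or the 2.5-fold rule is given singly, by range or within a count. The 3 promoters most like a gene's region by Pearson r were added. The genes, regions, marker and family lists were chosen with earlier results of these data known. Replicates are biological according to the labels. No replicate pair agreed within sampling noise (chi-square per degree of freedom 1.41 to 17.5 over 99 replicate pairs). Same-numbered Pol II libraries deviated together in C57 (r 0.19 to 0.40), PWK (0.44 to 0.63) and SPRET (0.41 to 0.44), each with 3 pairs. Other groups share 2 numbers only. H3K27ac libraries of the same number also deviated together, in C57 (r 0.73), BALB (0.65), NOD (0.72), PWK (0.69) and SPRET (0.51). The fits reported for H3K27ac do not use this. Inputs and 4 Pol II columns of the genotype table that match no sample were not used. Part of the fits were also run on simulated reads with independent libraries. The simulation held no shared replicate deviation and no difference in enrichment, so it does not check the calls reported here.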

Additional observations from a re-analysis of the deposited data

Results flagged for a closer look

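A single value stood apart from its group by Dixon's criterion. Pol II at the Mmp13 promoter in C57 basal replicate 3 was 13.93 normalized tags in the strain table and 13.4 in the time course table, which count the same library in slightly different windows. The other 3 basal libraries held 1.6 to 3.04 tags, and the 24 h libraries 18.01, 8.65 and 19.24, so the high basal library overlapped with the 24 h group. Of the groups of 4 libraries, 19 were tested in the strain tables and 24 in the time course, where chance marks about 1 in 20.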

How the results depend on the processing

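Of the counts of called rows under the alternatives, 533 stayed within 1.5 times the reported count and 155 moved. Of single regions, 252 kept their direction and side of the threshold, 27 newly passed it, 75 no longer passed it and 4 reversed. Of peak counts, 92 stayed and 12 moved, and with a 25 kb window the number of rows near the genes stayed within 1.5 times in all 9 tables. With 2 libraries a group most calls rest on each library, and at rows of a few tags, as at Mmp13, 1 library can move a mean. The causes were not tested. The reversals all concern Mmp8 at 14.1 kb, H3K27ac at 6 h in C57, where the log2 fold change was -0.19 in the fit used in the report: 0.0176 under median-ratio scaling, 0.0021 with edgeR, 0.0019 with DESeq2, and -0.39 to 0.0089 when each library was left out.

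In what follows, counts are of rows near the 3 genes, with the reported count first. The share of all rows under each alternative is not given here, so the counts only show how the reported ones moved. With a 2-fold rule, H3K27ac went from 1 to 6 in BALB, 3 to 7 in NOD and 1 to 3 in PWK, and Pol II from 1 to 3 in C57 and 2 to 4 in PWK. With no filter on low values, the fold rule on H3K27ac went from 2 to 5 in C57 at 24 h in both tables. With a pseudocount of 5, C/EBPb at 24 h between genotypes went from 1 to 2, STAT6 from 0 to 1, SPRET H3K27ac from 1 to 2 and NOD H3K4me3 from 0 to 1, and the fold rule from 2 to 1 for C57 H3K27ac (both tables), 1 to 0 for PWK H3K27ac, and 1 to 0, 4 to 2 and 2 to 0 for Pol II in C57, NOD and PWK. With a filter on low values, C/EBPb went from 1 to 0, H3K27ac from 1 to 2 at 1 h and 1 to 3 in SPRET, NOD H3K4me3 from 0 to 2 and Pol II at 6 h from 2 to 1.

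Median-ratio scaling took C/EBPb from 1 to 0, H3K27ac from 0 to 1 in BALB, 1 to 2 at 1 h, 0 to 1 at 24 h in the time course and 2 to 1 between genotypes at 24 h, NOD H3K4me3 from 0 to 1 and BALB Pol II from 2 to 0. By the fold rule it took C57 Pol II from 1 to 2, BALB H3K27ac from 1 to 2 and H3K27ac at 1 h from 6 to 3. EdgeR called 0 for C/EBPb, 1 for H3K27ac in BALB, 2 at 1 h, 1 at 24 h in the time course, 1 between genotypes at 24 h, 3 in SPRET, 2 for NOD H3K4me3, and 0 and 6 for Pol II in BALB and SPRET. DESeq2 called 0 for C/EBPb (it gave no adjusted p at the 17.5 kb site of Mmp12), H3K27ac and H3K4me2 between genotypes at 24 h, 1 for H3K27ac in BALB, C57, NOD and the time course at 24 h, 2 at 1 h and 3 in SPRET, 1 for NOD H3K4me3, and 1, 1, 3 and 5 for Pol II in BALB, NOD, PWK and SPRET.

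Outside Pol II of C57, PWK and SPRET, groups share 2 replicate numbers only. H3K27ac libraries of the same number still deviated together in the strains (r 0.51 in SPRET to 0.73 in C57). The replicate block gave for H3K27ac 1 (BALB), 9 (C57), 7 (NOD), 1 (PWK) and 5 (SPRET) calls. It gave 8, 5 and 3 in the time course at 1, 6 and 24 h, and 1 between genotypes basal. It gave 3 for SPRET H3K4me2, 2 for H3K4me3 in each of BALB, C57, NOD and PWK, 1 for STAT6 between genotypes at 24 h, and 0, 4, 6 and 8 for Pol II in BALB, NOD, PWK and SPRET.

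Leaving out each library in turn, limma counts for H3K27ac ranged from 0 to 2 in BALB, 0 to 0 in SPRET, 0 to 9, 0 to 3 and 0 to 1 at 1, 6 and 24 h and 0 to 2 between genotypes at 24 h, for H3K4me2 from 0 to 9 in BALB, 0 to 6 in C57, 0 to 2 in NOD, 0 to 1 in SPRET and 0 to 1 between genotypes, and for Pol II from 0 to 1 in BALB and C57, 0 to 2 in PWK, 0 to 3 in SPRET, and 0 to 6 and 0 to 1 at 6 and 24 h. They ranged from 0 to 1 for C/EBPb at 24 h and for PPARg basal and interaction, and 0 to 2 for EGR2 at 1 h. Fold-rule counts for H3K27ac ranged from 1 to 5 in C57, 2 to 5 in BALB, NOD and SPRET, 0 to 3 in PWK, and 5 to 11, 2 to 7 and 1 to 6 at 1, 6 and 24 h, and for Pol II from 0 to 4 in C57, 4 to 8 in BALB, 1 to 2 in PWK and 3 to 7 in SPRET.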
